A study of Mus musculus with 24 samples.

Results

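Pigr, the polymeric immunoglobulin receptor, and a group of genes known for their expression in periportal hepatocytes were followed in mouse liver under 3 diets. The genes were Pigr, Cdh1, Hal, Uroc1, Gls2, Sds, Hsd17b13 and Ctsc, and every probe set whose array annotation lists exactly 1 of these symbols was taken. This gave 11 probe sets for 6 of the 8 genes, of 45037 probe sets in all. Gls2, the liver glutaminase, and Sds, serine dehydratase, had no probe set under this rule and were not analysed here. The members were selected on results of both diet comparisons in these same arrays, so their values are given as a description and without p-values, and a call says only on which side of the threshold they lie.

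Whole liver RNA of 18 male C57BL6J mice was hybridised to 1 Affymetrix array each. Of these, 6 mice ate a diet with 45% fat and 5% powdered yam propagules (HF+P), 6 ate the 45% fat diet alone (HF) and 6 ate a low-fat diet (LF). All 3 groups had first been accustomed to the low-fat diet, ate their diet for 4 weeks and had fasted for 16 h at dissection; the sources used here give no age. Such pieces of liver mix all zones of the lobule and all its cell types, so fewer cells of a type and less RNA per cell cannot be told apart in any of the values below.

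Blood enters the liver lobule at the portal tract and leaves at the central vein, and hepatocytes along this path divide the work of the organ. Periportal hepatocytes are known for gluconeogenesis, urea synthesis and the breakdown of amino acids, pericentral ones for glutamine synthesis, bile acid synthesis and much of the P450 metabolism. The polymeric immunoglobulin receptor binds IgA joined by the J chain on the blood side of an epithelial cell, carries it across the cell and is cut to release it as secretory IgA; in mice and rats hepatocytes do this and deliver IgA into bile.

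The 250 bases before the transcript start are shown for Pigr, the member called in HF against LF, and for Hal, because of the 5 members with a promoter in the table (Pigr, Hal, Uroc1, Hsd17b13 and Ctsc) these were the ones that held a searched motif. The sequences are those of RefSeq for GRCm38.p6, on the plus strand at chr1:130826434-130826683 for Pigr and chr10:93488518-93488767 for Hal, with the motif in capitals. No promoter of Cdh1, Gls2 or Sds was printed.
Pigr: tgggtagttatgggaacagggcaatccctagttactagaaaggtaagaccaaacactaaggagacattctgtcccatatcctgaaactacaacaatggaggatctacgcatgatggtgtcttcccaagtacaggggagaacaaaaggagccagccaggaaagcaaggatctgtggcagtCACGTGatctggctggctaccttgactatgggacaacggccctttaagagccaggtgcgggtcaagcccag
Hal: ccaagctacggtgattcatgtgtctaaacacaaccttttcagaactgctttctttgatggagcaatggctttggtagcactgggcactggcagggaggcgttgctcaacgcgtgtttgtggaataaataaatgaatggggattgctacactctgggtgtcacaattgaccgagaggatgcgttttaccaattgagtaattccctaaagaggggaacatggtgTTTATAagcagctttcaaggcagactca
In Pigr the capitals mark CACGTG, the E-box bound by helix-loop-helix factors, whose first base lay 71 bases before the start. In Hal they mark TATAAA, the TATA box letters, here on the opposite strand and 28 bases before the start. Both strands were searched. CACGTG stood in 1 of the 5 promoters and in 6.0% of 32851 promoters of the same length, and TATAAA in 1 of 5 and in 12.4%. The letters TGACGTCA (cyclic AMP response element), TTGCGCAA (C/EBP) and CAAAGTCCA (HNF4) and the interferon response motif were in 0 of the 5 windows and in 1.5%, 0.2%, 0.4% and 3.0% of all promoters. These matches describe letters only.

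The 6 HF arrays were deposited in 2 value sets, one processed with the LF arrays and one with the HF+P arrays, which were never mixed. Deposited values, taken as log2, hardly differ between mice: the SD over the 12 arrays of a value set had a median of 4.17e-06 over all probe sets in the LF and HF set and 4.26e-06 in the HF and HF+P set. A difference is therefore given as a standardized difference, the difference of group means in pooled within-group SDs with the correction of Hedges and a 95% interval, and is not a fold change. Values of single mice are given in the same pooled SDs, counted from the mean of the group the comparison is made against. A probe set was called where limma, fitted over all 45037 probe sets, gave a Benjamini-Hochberg adjusted p below 0.05.

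The members were well expressed in these livers. In the LF and HF set the brighter Pigr probe set (1450060_at) had a deposited mean of 12.64 in HF and 12.64 in LF, which placed it at the 99.3rd percentile of all probe sets, and the other Pigr probe set (1455490_at) lay at 12.55 in both groups. Hsd17b13 (1460606_at) had 12.59, Hal 11.91, Uroc1 (1451565_s_at) 11.56, Ctsc (1416382_at) 10.87 and Cdh1 9.36 in both groups. Levels of different probe sets are not comparable as amounts of RNA. The second probe set of Hsd17b13 (1425589_at) lay at 6.76 and the third of Ctsc (1446834_at) at 6.58, below the column median of 6.90. Hepatocyte markers were present in all mice, with deposited means in HF and in LF of 14.89 for Alb and 13.24 for Apob.

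The comparison of HF with LF asked what high-fat feeding did. Pigr was the member that was called, and it rose in HF livers. For probe set 1450060_at the 6 HF mice lay between 2.62 and 4.60 pooled SDs above the LF mean, with a median of 4.26, against values between -1.65 and 1.89 with a median of -0.24 in the 6 LF mice. All HF mice were above all LF mice, with HF mouse 8 the lowest HF mouse and LF mouse 3 the highest LF mouse. The standardized difference was 3.69 (95% interval 1.76 to 5.57, n = 6 per group), on a deposited difference of 0.000302. It lay between 3.43 and 5.03 when 1 mouse was left out, and the call was kept in all 12 such fits.

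The second Pigr probe set was also higher in every HF mouse. For 1455490_at the HF mice lay between 2.17 and 3.51 with a median of 2.64, against -1.63 to 1.62 with a median of 0.37 in LF mice. The groups did not overlap here either, and LF mouse 3 was again the highest LF mouse and LF mouse 8 the lowest. The standardized difference was 2.58 (1.02 to 4.08) and was not called; without LF mouse 3 it was 3.27 and called. Within the groups, the deviations of the 12 mice in the 2 probe sets had a Pearson correlation of 0.62, a description over arrays that share their processing.

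The size of the Pigr difference depended on how the arrays were scaled. With the column medians subtracted the values of the 2 Pigr probe sets were 2.80 (called) and 1.09 (not called). After quantile normalization, which sets values by rank, the first had 0.60 and was not called, and the second had the same rank, 375, on every array and could not be tested. The rank of the first was 333 or 334 on all 12 arrays.

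**Figure D1:**
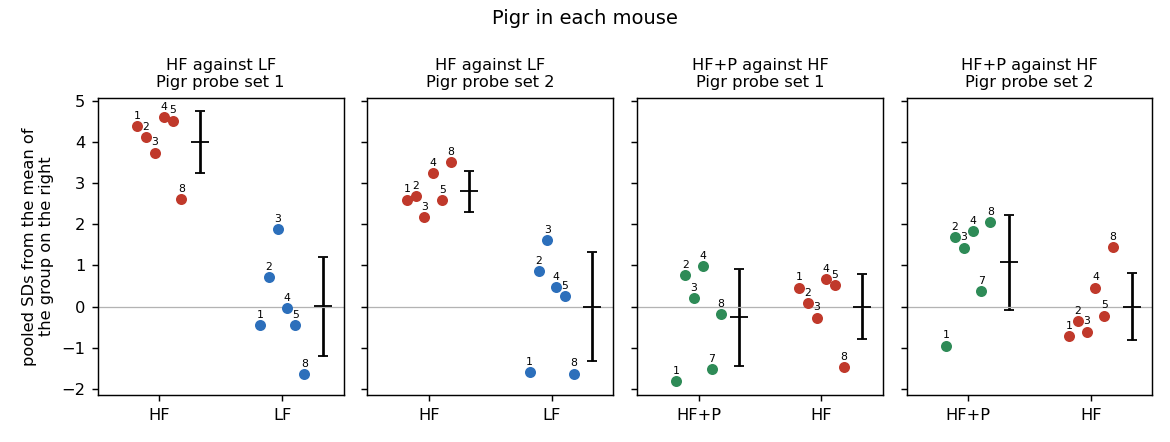
Pigr in each mouse (points, numbered as in the labels) for the probe sets 1450060_at (probe set 1) and 1455490_at (probe set 2); the vertical axis gives pooled SDs from the mean of the group on the right of each panel, and the black bars show the group mean and SD. All HF mice lie above all LF mice in both left panels (2.62 to 4.60 against -1.65 to 1.89 for probe set 1), while HF+P and HF overlap in both right panels.

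Cdh1 encodes E-cadherin, which joins neighbouring epithelial cells and in the liver is known from periportal hepatocytes and bile ducts. HF mice lay between -0.21 and 2.32 with a median of 1.20, against -1.72 to 0.91 with a median of 0.36 in LF mice. The groups overlapped, through HF mice 3, 5 and 8. The standardized difference was 1.13 (-0.05 to 2.25) and was not called; it was 0.19 with column medians subtracted and -0.33 after quantile normalization, so its direction depended on the scaling.

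Hal and Uroc1 carry out the first steps of histidine breakdown: histidine ammonia-lyase makes urocanate, and urocanate hydratase passes it on. For Hal the HF mice lay between -1.81 and 0.98 (median -1.06) and the LF mice between -1.33 and 1.20 (median 0.13), with a standardized difference of -0.79 (-1.87 to 0.33). HF mouse 1 was the highest of its group, and 3 HF mice lay below all LF mice. Uroc1 had values of 0.01 (-1.03 to 1.05) and 0.59 (-0.50 to 1.65) in its 2 probe sets. None of these was called. With column medians subtracted Hal had -5.13 and the Uroc1 probe sets -2.94 and -2.12, all called lower, so the direction for Uroc1 depended on the scaling. In that setting 42047 of all 45037 probe sets were called lower, with a median of -2.72 over all of them.

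Hsd17b13 encodes an enzyme of the lipid droplet surface. By its bright probe set, 1460606_at, HF mice lay between -3.28 and -0.74 with a median of -2.62, against -1.38 to 1.21 with a median of 0.25 in LF mice. HF mouse 5 lay within the LF range and the other HF mice below it. The standardized difference was -2.24 (-3.63 to -0.78), which was not called with all mice and was called without HF mouse 5, at -2.95. The dim probe set 1425589_at had -0.96 (-2.06 to 0.19). Both were negative under each scaling that could be fitted, and with column medians subtracted both were called, at -3.10 and -3.20. That setting called 42047 of all 45037 probe sets lower, with a median of -2.72. After quantile normalization 34665 of the 40558 probe sets that could be fitted were negative. Under these scalings the signs were thus those of most probe sets. Within the groups, the 2 probe sets had a correlation of 0.03 over the 12 mice, and the dim one lay at the 43.6th percentile of the levels.

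Ctsc encodes cathepsin C, a lysosomal protease that activates granule serine proteases and is also known from macrophages and other leukocytes. By its bright probe set, 1416382_at, HF mice lay between 0.00 and 3.39 with a median of 0.64, against -0.51 to 1.07 with a median of -0.24 in LF mice. HF mouse 3 stood highest and LF mouse 3 was the highest of its own group. The standardized difference was 0.99 (-0.16 to 2.09), and 0.88 without HF mouse 3. The other Ctsc probe sets had 0.90 (-0.23 to 2.0) and 1.73 (0.42 to 2.99), and none was called. Those other probe sets turned negative with column medians subtracted (-0.64 and -1.42, the second called) and after quantile normalization (-1.02 and -2.16, the second called), while the bright one stayed positive at 0.62 and 0.73. Over all probe sets the medians under these scalings were -2.72 and -0.84.

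HF mouse 3 and LF mouse 3 were also the highest of their groups for macrophage markers. The mean deviation of 9 macrophage markers was 2.28 in HF mouse 3 and at most 0.91 in the other HF mice, and 1.61 in LF mouse 3 and at most 0.10 in the other LF mice. Of these markers 8 had a positive difference in HF and 0 were called, with 1 at an unadjusted limma p below 0.05; their summed deposited level was 80.0 in HF and 80.0 in LF, with none listed at 0. For 7 lymphocyte markers, all of them with a positive difference, the mean deviation ran from 0.34 to 2.22 in HF mice, against -0.15 to 0.17 in LF mice, and their summed level was 50.4 in both groups. That direction depended on the scaling: with column medians subtracted 1 of the 7 lymphocyte markers was positive, and after quantile normalization also 1, while macrophage markers were positive in 8 and 6 of 9. Over all probe sets, 1291 of 45037 and 5893 of the 40558 that could be fitted were positive in these settings. The column medians of HF exceed those of LF by 6.45e-05, so any smaller positive difference turns negative when they are subtracted. Of 4 neutrophil markers 3 were positive (median 0.77) and of 5 pancreatic acinar markers 4 (median 0.46), with Cela1 at 2.29 and its groups apart but not called, and with column medians subtracted 1 of each list was positive. None of these markers was listed at 0. The part of these cells in the values of Ctsc and Pigr was not tested. In HF mouse 3 the 2 Pigr probe sets lay at 3.74 and 2.17, the second of these the lowest HF value. Bile duct markers, whose cells also make Pigr and Cdh1, were dim. Krt19 lay at 6.68 and Krt7 at 6.57 in HF and in LF, 1 of the 6 measured was above the column median, their mean deviation ran from -1.18 to 0.51 in HF mice and from -0.46 to 0.83 in LF mice, and their summed level was 39.9 in both groups, with none listed at 0.

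Of the 11 member probe sets 1 was called in HF against LF, where 0.671% of all probe sets were called, 0.269% higher and 0.402% lower. The split over all probe sets was 121 higher and 181 lower, against 322 and 42047 with column medians subtracted and 205 and 6993 after quantile normalization. Standardized differences were positive for 8 and negative for 3, with a median of 0.90, against 0.01 over all probe sets. With column medians subtracted 4 members were positive and 7 negative, with a median of -1.42, against -2.72 over all probe sets, and 1 was called higher and 6 lower. After quantile normalization 7 members could be fitted, 2 positive and 5 negative, with 0 called higher and 2 lower. In 2 member probe sets, both of Pigr and higher in HF, the groups did not overlap, as in 1.57% of all probe sets, 0.644% with HF higher. These counts describe genes chosen with this comparison known.

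The comparison of HF+P with HF asked what the propagules changed. No member was called: 0 of 11 probe sets passed in limma, where 0.00222% of all probe sets were called, and 1 had an unadjusted p below 0.05, as had 6.94% of all probe sets. The groups did not overlap in 0 of the 11, against 0.355% of all probe sets, 0.162% with HF+P higher. Pigr by 1450060_at lay between -1.82 and 0.98 with a median of 0.02 in HF+P mice, against -1.47 to 0.66 with a median of 0.28 in HF mice, a standardized difference of -0.24 (-1.28 to 0.81), and of 0.22 with column medians subtracted. By 1455490_at the HF+P mice lay between -0.95 and 2.06 with a median of 1.56, against -0.72 to 1.44 with a median of -0.29 in HF mice, a standardized difference of 0.99 (-0.16 to 2.10). The groups overlapped in both, and HF+P mouse 1 was the lowest HF+P mouse in both. These intervals do not show that Pigr was alike in both groups.

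Cdh1 had the widest difference of the members here. HF+P mice lay between -0.02 and 2.45 with a median of 1.51, against -1.26 to 1.28 with a median of 0.14 in HF mice, and the standardized difference was 1.33 (0.12 to 2.50). HF+P mice 2, 3 and 8 lay above all HF mice, and the others within the HF range. For Hal the HF+P mice lay between -0.61 and 2.53 (median 1.11) and the HF mice between -0.63 and 1.24 (median -0.14), with a standardized difference of 1.06 (-0.11 to 2.17). HF+P mice 4 and 7 were high. The Uroc1 probe sets had 0.08 (-0.97 to 1.13) and 0.15 (-0.90 to 1.19), those of Hsd17b13 0.66 (-0.44 to 1.73) and 0.54 (-0.54 to 1.6), and those of Ctsc -0.39 (-1.44 to 0.68), -0.09 (-1.13 to 0.96) and -0.78 (-1.86 to 0.34). Among markers of other cells 0 of 9 macrophage markers were positive (median -0.66) and 0 of 7 lymphocyte markers (median -0.53), with the groups apart for Cd3e, and none was called. The mean deviation of the macrophage markers ran from -1.76 to 0.24 in HF+P mice and from -1.14 to 1.82 in HF mice, and that of the lymphocyte markers from -1.14 to -0.42 in HF+P mice and from -0.59 to 1.18 in HF mice. With column medians subtracted 0 of the 9 macrophage and 4 of the 7 lymphocyte markers were positive, and their part in the Ctsc values was not tested. The median over the 11 members was 0.15, against -0.01 over all probe sets (0.66 against 0.52 with column medians subtracted, and -0.13 against 0.09 after quantile normalization, with 6 members fitted), and the comparison shares its HF mice with the one above.

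**Figure D2:**
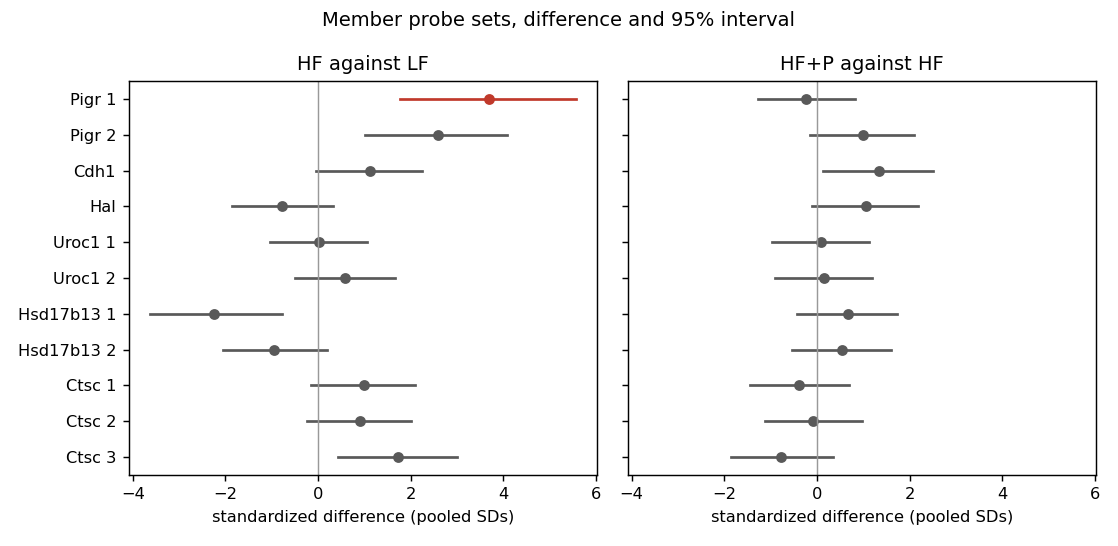
Standardized differences (points, in pooled SDs) with 95% intervals (lines) of the 11 member probe sets, numbered within a gene from bright to dim, for both comparisons (n = 6 mice per group); red marks a call. Pigr probe set 1 at 3.69 in HF against LF is the one called, and the values of HF+P against HF run from -0.78 to 1.33.

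The same 6 HF arrays could be read in both value sets, which shows what the processing does to the members. The order of the 6 mice was the same in both sets for 6 of the 11 probe sets, and the lowest Spearman correlation was 0.71. The spread was not the same. The SD of Pigr 1450060_at over the HF arrays was 5.63e-05 when processed with LF and 5.34e-06 when processed with HF+P, a ratio of 10.55, and its mean was 12.64 in the first and 12.94 in the second. For Uroc1 (1425003_at) the ratio was 0.20 and for Hal 0.27, while the median over all probe sets was 1.0. Sizes in deposited units therefore cannot be set side by side between the 2 comparisons.

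**Figure D3:**
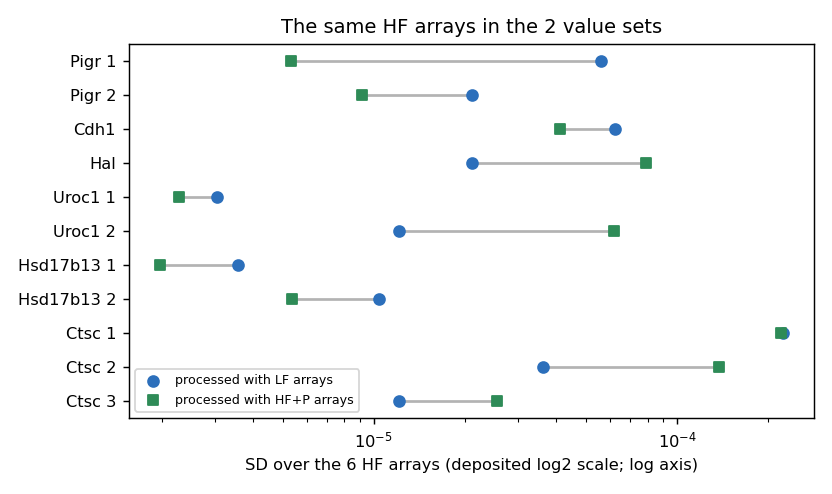
SD of each member probe set over the same 6 HF arrays (log axis, deposited log2 scale) in the value set with LF arrays (circles) and in the one with HF+P arrays (squares). Pigr probe set 1 has 5.63e-05 with LF arrays and 5.34e-06 with HF+P arrays, and Hal has 2.11e-05 and 7.89e-05.

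Deviations of members of different genes from their group means were weakly correlated. Over 49 pairs of probe sets of different genes the correlation of deviations had a median of 0.04 in the LF and HF set (range -0.59 to 0.58) and 0.11 in the HF and HF+P set (-0.45 to 0.80). Over the 6 pairs of probe sets of 1 gene the medians were 0.62 (range 0.03 to 0.85) and 0.52 (-0.49 to 0.78). The lowest of these were those of the 2 Hsd17b13 probe sets. The highest value between genes was that of Hal with Uroc1 (1451565_s_at), 0.80 over the 12 arrays of the HF and HF+P set. In the LF and HF set the same pair had 0.24. Hal with the other Uroc1 probe set (1425003_at) had 0.26 in both sets. The genes with deviations most like those of Pigr 1450060_at, by the lower of the correlations in the 2 value sets over 12 arrays each, were Plaa (0.81 and 0.82), Tcof1 (0.84 and 0.78), Mplkip (0.78 and 0.80), Zxdb (0.74 and 0.87) and Akap2 (0.75 and 0.74). None of them was called in either comparison, and the 2 value sets share the HF arrays. They are the highest from a search over the 34945 probe sets with 1 symbol, so their correlations do not by themselves show a link to Pigr. In the LF and HF set Plaa lay at the 19.7th and Tcof1 at the 23.0th percentile of the levels. Mplkip, Zxdb and Akap2 lay at percentiles 53.4, 55.6 and 54.5.

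Of 18 other periportal genes measured, represented by their brightest probe set, 2 fell and 0 rose, where 0.984% of all genes were called; the median standardized difference was -0.63, against 0.01 over all genes, and 5 of 18 had a positive one. With column medians subtracted 1 of 18 was positive and the median was -2.53, against -2.71 over all genes. This and the other lists around the members were chosen with earlier results of these data known. The calls and p-values of their genes are therefore not independent tests. For Apoc2, which activates lipoprotein lipase, HF livers were lower: it fell by 4.02 (95% interval -6.02 to -1.97; limma, Benjamini-Hochberg adjusted p = 0.00763), with HF mice between -5.34 and -3.23, against -1.36 to 1.84 in LF mice. G6pc, which releases free glucose from glucose phosphate, fell by 3.10 (-4.77 to -1.38; adjusted p = 0.0261), with HF mice between -4.34 and -1.89, against -1.41 to 1.39 in LF mice. The groups did not overlap in either gene. The call of G6pc was lost without LF mouse 1, 3, 5 or 8 or HF mouse 2, 3, 4 or 8, and that of Apoc2 was kept in all 12 such fits. Urea cycle genes did not pass: Ass1 had -1.47, Asl -1.03, Cps1 -0.71 and Arg1 -0.55. The Ass1 probe set was far dimmer than the others, at percentile 70.2 of the levels, against 99.1 for Asl, 99.9 for Cps1 and 99.7 for Arg1. The mean deviation of the 18 genes ran from -1.29 to -0.41 in HF mice and from -0.27 to 0.38 in LF mice.

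Among 19 pericentral genes 1 rose and 0 fell, with a median of 0.44 and 14 positive values. The direction of the list depended on the scaling: with column medians subtracted 5 of 19 were positive, with a median of -0.42 against -2.71 over all genes, and after quantile normalization 3 of the 13 that could be fitted, with a median of -0.55 against -0.84. Gulo, which makes ascorbate in mice, rose by 2.97 (1.29 to 4.59; limma, adjusted p = 0.0322), with HF mice between 1.65 and 4.47, against -1.45 to 1.49 in LF mice. Its call was kept without LF mouse 2 or HF mouse 5 and lost without any of the other mice. Gulo stayed called with column medians subtracted, at 2.66. Glul, glutamine synthetase, had 0.40 and Cyp2e1 0.60, without a call, and -0.85 and -2.77 with column medians subtracted. The 0.60 of Cyp2e1 rests on a deposited difference of only 1.5e-08, and its -2.77 lay near the -2.71 over all genes. In HF+P against HF 0 of the 18 periportal and 0 of the 19 pericentral genes were called (limma; 3 and 3 at an unadjusted p below 0.05, as had 7.05% of all genes), against 0.0055% of all genes called, with medians of 0.59 and -0.28; the second was -0.12 with column medians subtracted and 0.20 after quantile normalization. G6pc had 1.45, Gulo -1.39 and Lect2, a pericentral hepatokine, -2.11 there. Apoc2 had -0.38 there, with the same sign as in HF against LF. Both comparisons use the same HF mice, on opposite sides, so signs opposite to those in HF against LF are not independent of them.

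The lists built around the single members gave 1 further call. In histidine, serine, threonine and glutamine breakdown, 1 of 15 rose in HF and 0 fell: Shmt2, the mitochondrial serine hydroxymethyltransferase, rose by 2.7 (1.10 to 4.23; limma, adjusted p = 0.0483). HF mice lay between 0.47 and 4.2, against -0.50 to 0.75 in LF mice, with HF mouse 8 within the LF range. The call held without HF mouse 8, with a value of 5.58, and was lost without any other mouse. Its value was -1.30 with column medians subtracted, so the direction depends on the scaling, and its probe set is of a kind that can bind other transcripts. Amdhd1, the next enzyme of histidine breakdown after Uroc1, had -1.23 in HF against LF and 1.91 in HF+P against HF, neither called. The same HF mice are on opposite sides of these comparisons, so the opposite signs are not independent. Ftcd, of the same list, had -0.81 in HF against LF and -0.21 in HF+P against HF, neither called. Shmt2 had 0.04 in HF+P against HF, where 9 of the 15 genes were positive, with a median of 0.08 and 0 calls.

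For Pigr itself, 14 genes of signals known to induce it gave 0 calls in HF against LF (limma; 2 at an unadjusted p below 0.05, as had 15.1% of all genes; median 0.24). Irf1, an interferon-induced factor, had 1.0, Il17ra, the interleukin 17 receptor, 1.61 and Rela, a subunit of NF-kappa-B, -1.64. With column medians subtracted these were 0.98, -0.81 and -2.89, so the direction for Il17ra depended on the scaling, and 1 of the 14 genes was positive. Of 12 genes of IgA and of transcytosis 0 were called (1 at an unadjusted p below 0.05, median 0.15). Jchain, which joins IgA, had 0.40, Igha -0.07 and Rab17, a GTPase of epithelial transcytosis, 0.39, and with column medians subtracted they had -2.45, -2.75 and -2.56. The median over all genes was -2.71 in that setting. In HF+P against HF 0 genes were called in either list (0 and 1 at an unadjusted p below 0.05, medians -0.04 and -0.11, and 0.29 and 0.55 with column medians subtracted).

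For the other members, the 13 adherens junction genes, 10 genes of the HSD17B family, 17 cathepsins and granule proteases and 15 regulators of periportal and fasting genes gave 0 calls in either comparison by limma. At an unadjusted p below 0.05 there were 3, 2, 3 and 1 in HF against LF and 0, 1, 0 and 0 in HF+P against HF. Hsd17b7, an enzyme of cholesterol synthesis, was singled out after its values were seen: it had 2.61 (1.04 to 4.11) in HF against LF, with groups that did not overlap and no call (limma, adjusted p = 0.0529), and -0.10 in HF+P against HF. Hsd17b11, a lipid droplet protein related to Hsd17b13 and chosen in the same way, had -1.80 (-3.08 to -0.47) and 0.47. The probe set of Hsd17b7, like that of Shmt2, is of a kind that can bind other transcripts.

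**Figure D4:**
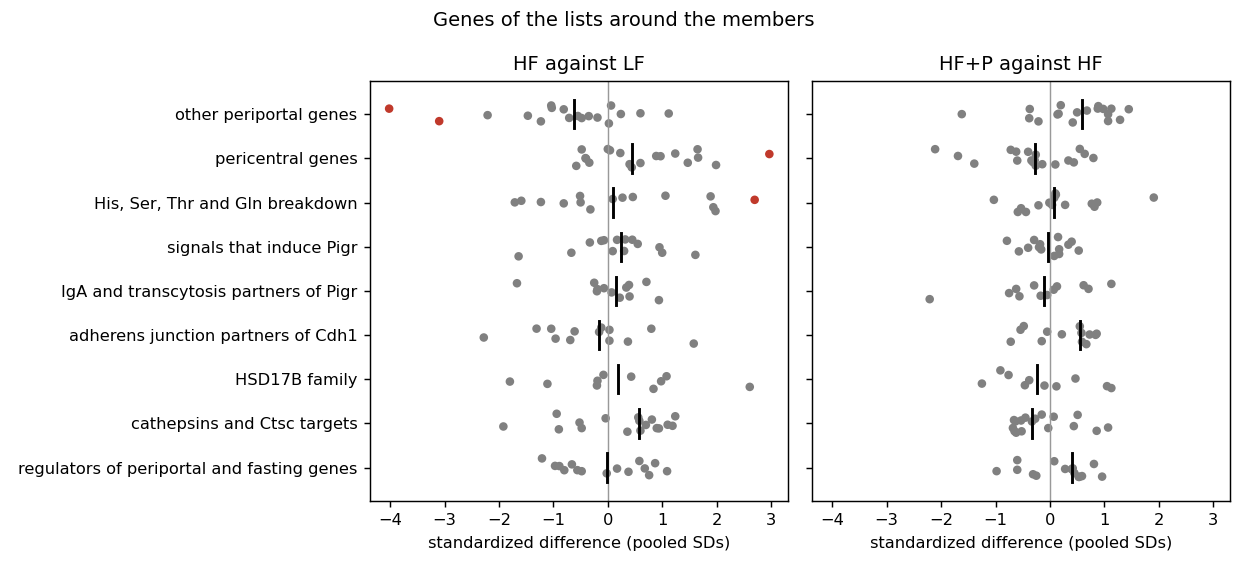
Standardized differences (points, 1 per gene, in pooled SDs; vertical jitter has no meaning) of the genes in 9 lists around the members, with the median of each list as a black bar and calls in red. In HF against LF the other periportal genes have a median of -0.63 and the pericentral genes 0.44 (-2.53 and -0.42 with column medians subtracted, which is not drawn), and in HF+P against HF no gene of these lists is called.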

How the data were processed

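Liver RNA of 18 mice was measured on 1 array each, in 24 deposited columns, because the 6 HF arrays are in both value sets. The authors used R 2.7.2, per the submitters' processing notes; the sources used here do not give the summarisation, normalisation or log base. The deposited values run from 5.36 to 15 and were taken as log2. Mouse numbers were read as separate animals, and p-values measure the spread between these samples only. The number of arrays limits the precision, and the labels number the mice without stating a pairing.

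The 64 control probe sets were left out and 45037 were fitted in limma 3.58.1 (R 4.3.3; lmFit, eBayes), two-sided, 6 mice per group, no covariate, Benjamini-Hochberg threshold 0.05. Genes of lists stood for their probe set with the highest mean over 24 columns. Of 181 genes in 15 lists 162 had a probe set, and 7 were in more than 1 list. The fit was tested on simulated data.

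Named by rule were the members, up to 3 called genes per list and comparison, and the 5 genes most like Pigr. The text also names other genes of the lists, which were not called in the fit of the deposited values. These were picked outside the rule, with their values known, and are examples only. Members and lists were chosen with earlier results of these data known. Alternatives were quantile normalization, median centring, filters on level and spread, a fit over 18193 genes, trend and robust settings, array weights, a threshold of 0.1, a block for mouse number, and fits without each single mouse.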

Additional observations from a re-analysis of the deposited data

Results flagged for a closer look

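Of 44 groups of 6 mice (11 probe sets in 4 groups), 1 had a mouse far from the others, where about 1 in 20 is what chance gives. The HF arrays count in both value sets and some probe sets share a gene, so the 44 are not independent. For Uroc1 (1425003_at) in LF, mouse 2 was highest, and its gap to the next mouse was 0.641 of the range of the group, above Dixon's critical value for a group of that size.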

How the results depend on the processing

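Counts of calls depended on the processing. In HF against LF 302 probe sets were called, 121 higher and 181 lower, against 7198 after quantile normalization (205 higher, 6993 lower), 42369 with column medians subtracted (322 higher, 42047 lower), 568 without the dimmer probe sets, 539 without those of lower SD and 861 at a threshold of 0.1. The column medians of HF exceed those of LF by 6.45e-05, and 7 of the 11 members differ by less than that, and quantile normalization left 4479 probe sets without spread within the groups, so that these were not tested. Leaving out 1 mouse gave 131 to 325 calls, with the lower counts, up to 174, without LF mouse 1, 3, 5 or 8 or HF mouse 2, 3 or 4. The count of members called went from 1 to 2 after quantile normalization, 7 with medians subtracted, 2 without dimmer and 2 without less variable probe sets, 3 at 0.1 and 1 to 2 without 1 mouse; the count of list genes went from 4 to 14, 99 and, at 0.1, 7, and to 1 to 4 without 1 mouse. After quantile normalization the called members were Hsd17b13 (1425589_at, -1.75) and Ctsc (1446834_at, -2.16), and Pigr had 0.60. With medians subtracted Shmt2 had -1.30. In HF+P against HF the count of 1 became 2 with medians subtracted and 0 to 2 without 1 mouse: 0 without HF+P mouse 1, 2 or 4 and 2 without HF mouse 2. The cause was not tested. In these data the trend and robust settings and the array weights changed no call of a member.

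With the mouse number as a replicate block Pigr kept its call (3.99), G6pc had -10.87 and kept it, and Apoc2 (-3.04), Gulo (3.31) and Shmt2 (2.96) lost theirs. Correlations of the deviations of same-numbered mice lay between -0.13 and 0.1 for HF and LF, and between 0.03 and 0.21 for HF+P and HF. The numbers were therefore not taken as pairs, although correlations over all probe sets do not settle a pairing. For G6pc the mice ran 4, 2, 3, 8, 5, 1 from low to high in HF and 4, 2, 8, 3, 5, 1 in LF.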
